A study of Mus musculus with 8 samples.

Results

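The genes described here are 42 genes known as markers of myeloid cells, read in samples that the labels call splenic B cells and BCR-ABL1 bone marrow cells. Which cells in these samples carried the RNA was not tested. Each probe set of a mouse Affymetrix expression array whose gene symbol in the platform annotation was one of the 42 names was taken, which gave 56 probe sets for 41 genes, of 45037 probe sets that were not controls. Cebpe, a transcription factor of granulocyte maturation, had no probe set of its own in that annotation. Of the 41 genes, 13 are called neutrophil granule genes here, 11 are monocyte and macrophage genes, and 17 are other members. The granule group also holds the calprotectin genes and Ms4a3, a progenitor marker grouped with the azurophil granule genes. The other members are lysozymes, C/EBP transcription factors, receptors, adaptors and mediators. All samples came from a reporter in which GFP reports expression of AID, the B cell deaminase behind antibody class switching. The 4 groups, of 2 arrays each, were BCR-ABL1 GFP-positive bone marrow cells, BCR-ABL1 GFP-negative bone marrow cells, GFP-positive splenic B cells given LPS and IL4, and GFP-negative splenic B cells with the same stimulation. BCR-ABL1 is the fusion kinase of Philadelphia chromosome leukaemia. The labels give neither age nor sex of the mice, neither the purification before sorting nor the time in culture, and they do not say how BCR-ABL1 was introduced or whether the 2 arrays of a group came from separate mice or cultures.

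Neutrophils store antimicrobial proteins in granules that are made in sequence as the cell matures. Azurophil granules hold myeloperoxidase and serine proteases and are made by promyelocytes, specific granules with lactoferrin, lipocalin 2 and cathelicidin come next, and gelatinase granules come last, while S100A8 and S100A9 form calprotectin, an abundant protein pair of the neutrophil cytosol. Monocytes and macrophages depend on the CSF1 receptor, sense bacterial products through CD14, and carry Fc receptors that signal through the adaptors FcRγ and DAP12. The spleen is a reservoir of both kinds of cell. The granule genes are used as markers of neutrophils and their precursors, which does not exclude RNA from other cells. Some of the receptors and adaptors in this group of genes are also found in B lineage cells.

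The promoters of 5 granule genes are shown because they are the calprotectin pair and 3 specific granule genes whose window holds TTGCNNAA, the motif of the C/EBP factors that are themselves among the members. Each is the run of 250 bases before the RefSeq start of the gene on GRCm38.p6, written on the strand of the gene, and capitals mark matches to TTGCNNAA, a degenerate form of the C/EBP site, or to GAGGAAGT, a form of the PU.1 site, on either strand. S100a8 lies at chr3:90668821-90669070 on the plus strand, S100a9 at chr3:90695722-90695971 on the minus strand, Lcn2 at chr2:32387740-32387989 on the minus strand, Ngp at chr9:110419558-110419807 on the plus strand and Ltf at chr9:111019042-111019291 on the plus strand.
S100a8: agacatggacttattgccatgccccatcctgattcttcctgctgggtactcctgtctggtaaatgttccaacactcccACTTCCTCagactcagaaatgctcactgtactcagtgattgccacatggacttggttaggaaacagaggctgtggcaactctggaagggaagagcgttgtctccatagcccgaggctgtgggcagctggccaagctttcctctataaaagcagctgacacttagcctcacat
S100a9: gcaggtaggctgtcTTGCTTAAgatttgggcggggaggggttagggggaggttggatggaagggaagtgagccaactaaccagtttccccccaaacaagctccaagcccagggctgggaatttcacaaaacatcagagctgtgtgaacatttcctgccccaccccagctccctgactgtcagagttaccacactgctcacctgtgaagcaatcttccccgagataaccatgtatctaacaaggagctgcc
Lcn2: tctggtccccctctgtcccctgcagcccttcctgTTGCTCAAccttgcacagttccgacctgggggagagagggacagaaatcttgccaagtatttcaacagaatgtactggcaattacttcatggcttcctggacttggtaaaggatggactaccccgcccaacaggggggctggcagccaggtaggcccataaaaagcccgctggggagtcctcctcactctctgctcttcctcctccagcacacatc
Ngp: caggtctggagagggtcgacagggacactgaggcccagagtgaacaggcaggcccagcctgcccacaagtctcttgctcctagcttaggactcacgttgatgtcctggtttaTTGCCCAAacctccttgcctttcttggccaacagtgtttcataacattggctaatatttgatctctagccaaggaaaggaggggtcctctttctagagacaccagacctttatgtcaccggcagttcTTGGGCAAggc
Ltf: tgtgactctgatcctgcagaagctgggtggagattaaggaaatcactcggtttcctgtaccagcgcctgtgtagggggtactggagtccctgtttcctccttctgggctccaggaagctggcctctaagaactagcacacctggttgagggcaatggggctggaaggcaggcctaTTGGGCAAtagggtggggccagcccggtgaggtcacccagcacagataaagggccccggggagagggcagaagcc
Of the 42 genes, 34 had a promoter in the RefSeq table used, 12 of them granule genes. TTGCNNAA was found in 10 of the 34 and in 5 of the 12 granule genes (Lcn2, Ltf, Mmp8, Ngp and S100a9), against 9.56% of 32851 promoters of the same length. GAGGAAGT was found in 5 of the 34, all of them granule genes (Elane, Mmp8, Mpo, Prtn3 and S100a8), against 2.44% of all promoters. The looser TTGCNNNA, which covers every match of TTGCNNAA, was found in 21 of the 34 and 29.3% of all promoters, and the palindrome TTGCGCAA in 0 of the 34 and 0.164%. These matches describe letters in this window and nothing about binding.

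Signal intensities as deposited had 2% trimmed means of 477 to 594 and were quantile normalized, then set to at least 32, the floor, before log2 values were taken. A total of 27022 probe sets passed a filter on the mean log2 value (5.67, a signal of 51) and were tested with limma, and a probe set was called where its Benjamini-Hochberg adjusted p lay under 0.05. Log2 differences are given ± standard error. B cell genes were read as 9 pan-B genes, whose summed signal ran from 38064 to 61828 over the 8 arrays, and 8 pre-B genes, whose sum was 45994 to 46959 in BCR-ABL1 GFP-positive, 45127 to 46058 in BCR-ABL1 GFP-negative, 2262 to 2521 in spleen GFP-positive and 8254 to 8601 in spleen GFP-negative arrays. A sum follows its brightest genes and does not test identity or purity. Single pan-B genes differed by -7.60 to 0.72 between BCR-ABL1 and spleen GFP-positive arrays. Because separate mice or cultures are not stated, each p-value covers only array-to-array spread, which may be technical.

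The first comparison asked whether the GFP-positive and GFP-negative splenic fractions held the same amount of myeloid RNA. Signals of most members were lower in the GFP-positive arrays, where 11 of 38 tested genes were at the floor with every tested probe set in both arrays. Of 46 member probe sets tested, 42 were called lower and 3 higher in GFP-positive arrays, with 1 not called and a median log2 difference of -4.87. Among all 27022 probe sets tested, 33.3% were called lower and 44.9% higher (78.2% in either direction), with a median of 0.17. Without the filter, 45 of all 56 member probe sets were called lower, 3 higher and 8 were not called (median -3.84), against 23.5% lower and 28.1% higher among 45037 probe sets with a median of 0. The filter itself enters this count, because of 38 tested genes only 23 exceeded its signal of 51, by any tested probe set, in both arrays of a group other than spleen GFP-negative, and a gene that passed through that group alone had to differ. The counts of tested members and of other lists in the spleen comparison are therefore descriptions. In RNA of a mixed sample, fewer cells of a type and less RNA per cell cannot be told apart.

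The calprotectin genes were low in every group but spleen GFP-negative. S100a8, one chain of calprotectin, had signals of 32.8 and 33.8 in spleen GFP-positive arrays, against 19564 and 18768 in spleen GFP-negative arrays. The difference was -9.17 ± 0.12 (adjusted p = 9.8e-09). Both spleen GFP-positive signals lay just above the floor after normalization, although 1 of these arrays had a deposited intensity of 30.6. Over the alternatives the difference ran from -9.24 to -8.20. S100a9, the other chain, had 60.6 and 57.0 in spleen GFP-positive arrays, against 21955 and 21955 in spleen GFP-negative arrays (-8.55 ± 0.12). Both spleen GFP-negative S100a9 values sit at the top rank of the array, where quantile normalization gives the same number. Their deposited intensities were 23410 and 25166. In the 4 BCR-ABL1 arrays S100a8 did not exceed 32.6 and S100a9 lay between 50.8 and 63.5, so that the 6 arrays other than spleen GFP-negative lay together and no array of the spleen GFP-negative pair overlapped them.

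Specific and gelatinase granule genes followed the same pattern with 1 exception in level. Camp, which encodes the cathelicidin precursor, was at the floor in both spleen GFP-positive arrays, against 7697 and 8992 in spleen GFP-negative arrays, at least 260-fold lower (adjusted p = 1.04e-08). Ngp, neutrophilic granule protein, was also at the floor in both spleen GFP-positive arrays, against 6842 and 6561 in spleen GFP-negative arrays, at least 209-fold lower. Both genes were at the floor in all 4 BCR-ABL1 arrays as well, so they were measured above the floor in spleen GFP-negative arrays alone. Ltf, which encodes lactoferrin, had 46.2 and 40.9 in spleen GFP-positive arrays, against 4659 and 4765 in spleen GFP-negative arrays (-6.76 ± 0.13). Lcn2, which encodes the siderophore-binding protein lipocalin 2, had 282 and 294 in spleen GFP-positive arrays, against 9276 and 9732 in spleen GFP-negative arrays (-5.04 ± 0.12, adjusted p = 2.16e-08). Lcn2 was the granule gene that stayed furthest above the floor in spleen GFP-positive arrays, while in BCR-ABL1 arrays it was at most 34.0, with 1 GFP-positive and both GFP-negative arrays at the floor. The collagenase gene Mmp8, a specific granule enzyme, was at the floor in both spleen GFP-positive arrays, against 381 and 493 in spleen GFP-negative arrays, at least 13.5-fold lower. Mmp9, which encodes gelatinase B, had 48.9 and 56.7 in spleen GFP-positive arrays, against 3264 and 3138 in spleen GFP-negative arrays (-5.93 ± 0.13), and its second probe set gave -6.63. In each of these genes the 2 spleen GFP-negative arrays lay above all other 6 arrays.

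Genes of azurophil granules, which are made only while the cell is still a precursor, were measured in the spleen GFP-negative arrays too. Mpo, which encodes myeloperoxidase, had 33.8 and 32 in spleen GFP-positive arrays, against 2298 and 2050.4 in spleen GFP-negative arrays (-6.04 ± 0.12, adjusted p = 1.64e-08). The cathepsin G gene Ctsg was at the floor in both spleen GFP-positive arrays, against 623 and 669 in spleen GFP-negative arrays, at least 20.2-fold lower. Prtn3, which encodes proteinase 3, had 33.7 and 42.2 in spleen GFP-positive arrays, against 467 and 363 in spleen GFP-negative arrays (-3.45 ± 0.19). Across these genes the spleen GFP-negative arrays were again the 2 highest of the 8. Ms4a3, a marker of granulocyte and monocyte progenitors, had 56.9 and 62.2 in spleen GFP-positive arrays, against 559.8 and 453 in spleen GFP-negative arrays (-3.08 ± 0.15), the smallest difference among the granule genes tested. The neutrophil elastase gene Elane lay under the filter and was not tested with the others, with 168 and 129.7 in spleen GFP-negative arrays and the floor in the other 6. Over the 13 tested probe sets of the granule genes, in 12 of the 13 genes, 13 were lower (range -9.17 to -3.08), against 33.3% of all probe sets tested. Of the 12 genes only S100a9, Lcn2 and Ms4a3 exceeded the filter's signal in both arrays of a group other than spleen GFP-negative, so the others had to differ once they passed. Without the filter all 14 granule probe sets, Elane included, were lower, against 23.5% of 45037.

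**Figure D1:**
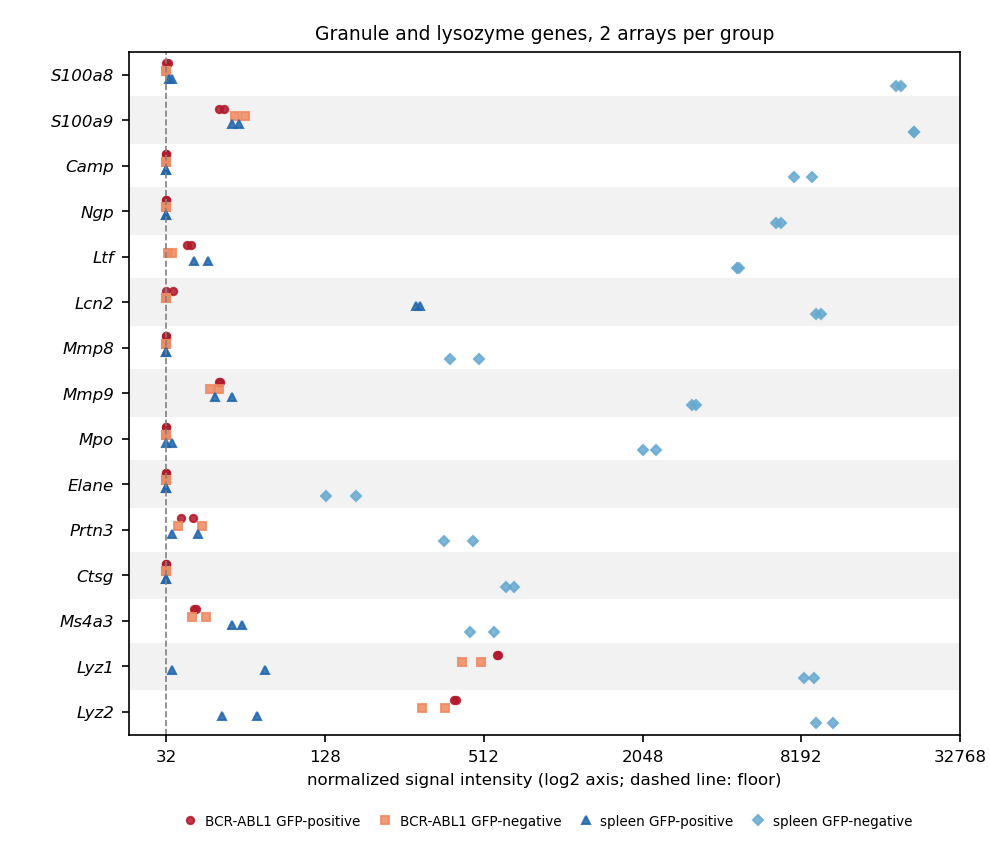
Normalized signal intensity on a log2 axis of the brightest probe set of each of 13 granule genes and 2 lysozyme genes, with 1 point per array and 2 arrays in each of 4 groups; the dashed line is the floor of 32. The spleen GFP-negative arrays (diamonds) lie to the right of all others in every row, Lcn2 is the granule gene with spleen GFP-positive arrays well above the floor, and Lyz1 and Lyz2 lie between 299 and 580.0 in the BCR-ABL1 arrays.

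The lysozyme genes showed 3 levels. Lyz2, the lysozyme of macrophages and neutrophils, had 70.8 and 52.0 in spleen GFP-positive arrays, against 10799 and 9339 in spleen GFP-negative arrays (-7.37 ± 0.17, adjusted p = 2.25e-08). Lyz1, its neighbour and close copy, known from Paneth cells, had 76.0 and 33.6 in spleen GFP-positive arrays, against 9107 and 8378 in spleen GFP-negative arrays (-7.43 ± 0.32). Without spleen GFP-positive replicate 2 the Lyz1 difference was -6.83. A second Lyz1 probe set gave -6.70, and the other one lay between 36.2 and 46.3 in all 8 arrays and was not tested. Signals of the first 2 Lyz1 probe sets and of Lyz2 cannot be assigned to one of the 2 genes here. In BCR-ABL1 arrays Lyz2 had 403 and 395 (GFP-positive) and 299 and 365 (GFP-negative), above the spleen GFP-positive and under the spleen GFP-negative arrays, with no overlap.

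The C/EBP transcription factors, which drive granulocyte and monocyte genes, differed between probe sets. Cebpa, needed for the granulocyte lineage, was at the floor in the 6 arrays other than spleen GFP-negative, which had 76.7 and 50.05, and lay under the filter. Cebpb, which acts in emergency granulopoiesis and macrophage activation, had 273 and 243 in spleen GFP-positive arrays, against 647 and 712 in spleen GFP-negative arrays (-1.40 ± 0.15, adjusted p = 4.47e-05). A second Cebpb probe set was higher in spleen GFP-positive arrays, with 151 and 173, against 82.6 and 109.5 in spleen GFP-negative arrays (0.76 ± 0.18, adjusted p = 0.00542), so no single direction can be given for the gene. Cebpd, an acute phase member of the family, had 139.8 and 127 in spleen GFP-positive arrays, against 320.4 and 162 in spleen GFP-negative arrays, which differ widely between themselves. This Cebpd difference of -0.77 ± 0.28 (adjusted p = 0.0324) lost its call in 11 of 19 alternatives, among them without spleen GFP-negative replicate 1 (-0.29), without spleen GFP-positive replicate 1 (-0.83) or 2 (-0.70), and without any one of the 4 BCR-ABL1 arrays (adjusted p = 0.0534 to 0.0561). A second Cebpd probe set was higher in spleen GFP-positive arrays, with 87.8 and 82.5, against 39.1 and 52.1 in spleen GFP-negative arrays (0.92 ± 0.15).

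Growth factor receptors separated the spleen fractions to very different degrees. Csf1r, the receptor of the macrophage growth factor CSF1, was by its brightest probe set at the floor in both spleen GFP-positive arrays, against 4819 and 4576 in spleen GFP-negative arrays, at least 147-fold lower (adjusted p = 1.04e-08). Its 2 other probe sets gave -4.98 and -2.67. The probe set with the difference of -2.67 had 66.6 and 63.2 in spleen GFP-positive arrays, against 389 and 437 in spleen GFP-negative arrays, and 59.4 and 59.8 (GFP-positive) and 64.6 and 71.6 (GFP-negative) in BCR-ABL1 arrays. Csf3r, the receptor of the granulocyte factor G-CSF, had 39.8 and 37.1 in spleen GFP-positive arrays, against 2559 and 2632 in spleen GFP-negative arrays (-6.08 ± 0.12). The fractions did not overlap in any Csf1r or Csf3r probe set, but the Csf1r probe sets differ in whether the spleen GFP-positive arrays are at the floor. Csf2ra, the ligand-binding chain of the GM-CSF receptor, had 494 and 486 in spleen GFP-positive arrays, against 1573 and 1641 in spleen GFP-negative arrays (-1.71 ± 0.10, adjusted p = 1.82e-06). The Csf2ra signals of BCR-ABL1 arrays, 459 and 506 (GFP-positive) and 517 and 453 (GFP-negative), overlapped those of the spleen GFP-positive arrays.

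Among receptors of neutrophils and monocytes, 1 gene ran against the others. The C-type lectin Clec4d, which binds mycobacterial glycolipid, had 53.6 and 63.4 in spleen GFP-positive arrays, against 8642 and 8605 in spleen GFP-negative arrays (-7.21 ± 0.14). Clec4e, which encodes its partner Mincle, was at the floor in both spleen GFP-positive arrays, against 1296 and 1082 in spleen GFP-negative arrays, at least 37-fold lower. The chemokine receptor Cxcr2, which draws neutrophils to inflamed tissue, was at the floor in both spleen GFP-positive arrays, against 264 and 287 in spleen GFP-negative arrays, at least 8.61-fold lower. Trem1, an amplifying receptor of neutrophils and monocytes, was at the floor in both spleen GFP-positive arrays too, and the spleen GFP-negative arrays had 315 and 367, which made the GFP-positive signal at least 10.6-fold lower. Its second probe set was at least 2.68-fold lower, a call lost with a floor of 64 (adjusted p = 0.0762). Il1r2, the decoy receptor for interleukin 1, had 757 and 759 in spleen GFP-positive arrays, against 149 and 239 in spleen GFP-negative arrays (2.00 ± 0.20, adjusted p = 3.32e-05). Il1r2 was the only member gene whose brightest probe set was called higher in spleen GFP-positive arrays, and the fractions did not overlap.

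Surface genes of monocytes and macrophages ranged in spleen GFP-positive arrays from the floor to levels well above it. Ccr2, the receptor that lets monocytes leave the marrow, was at the floor in both spleen GFP-positive arrays, against 1179.6 and 1281 in spleen GFP-negative arrays, at least 38.4-fold lower. Cd14, the LPS co-receptor, had 41.7 and 41.1 in spleen GFP-positive arrays, against 2868 and 2405 in spleen GFP-negative arrays (-5.99 ± 0.13). The integrin gene Itgax, which encodes CD11c, was at the floor in both spleen GFP-positive arrays, against 948 and 1049 in spleen GFP-negative arrays, at least 31.2-fold lower. These 3 genes stood at or close to the floor in spleen GFP-positive arrays and were at the floor in all 4 BCR-ABL1 arrays. Adgre1, which encodes the macrophage antigen F4/80, had 87.5 and 84.998 in spleen GFP-positive arrays, against 769 and 777 in spleen GFP-negative arrays (-3.16 ± 0.12). Cd68, a lysosomal glycoprotein, had 424 and 481 in spleen GFP-positive arrays, against 1644 and 1512 in spleen GFP-negative arrays (-1.80 ± 0.14), and its spleen GFP-positive mean was 28.7% of the GFP-negative mean. The Fc receptor genes Fcgr1 and Fcgr3, which bind IgG, were lower too, with log2 differences of -3.73 ± 0.16 and -4.08 ± 0.14. Itgam, which encodes CD11b, lay under the filter: it was at the floor in the 6 arrays other than spleen GFP-negative, where it had 47.3 and 34.0. Mrc1, the mannose receptor of macrophages, was at the floor in all 4 spleen arrays and was the 1 tested member not called (adjusted p = 1). Of 13 probe sets tested for monocyte and macrophage genes, 12 were lower, against 33.3% of all probe sets tested. Of the 10 genes tested, 7 exceeded the filter's signal in both arrays of a group other than spleen GFP-negative. The others that were called had to differ once they passed. Without the filter 14 of 18 were lower and 4 were not called, against 23.5% lower among all probe sets.

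The adaptors and the secreted or membrane mediators were lower as well, in different degrees. Tyrobp, which encodes DAP12, had 249 and 321 in spleen GFP-positive arrays, against 7526 and 7508 in spleen GFP-negative arrays (-4.73 ± 0.18), and Fcer1g, which encodes FcRγ, had 163 and 149.9 in spleen GFP-positive arrays, against 4362 and 4324 in spleen GFP-negative arrays (-4.79 ± 0.16). Both adaptors stayed above the floor in spleen GFP-positive arrays, at 3.79% and 3.61% of the spleen GFP-negative mean. Il1b, which encodes the cytokine interleukin 1 beta, had 62.6 and 70.9 in spleen GFP-positive arrays, against 6055 and 5995 in spleen GFP-negative arrays (-6.50 ± 0.15). Pla2g7, which encodes platelet-activating factor acetylhydrolase, had 34.3 and 33.2 in spleen GFP-positive arrays, against 2188 and 2089 in spleen GFP-negative arrays (-5.99 ± 0.13). Anxa1, which encodes the anti-inflammatory protein annexin A1, had 171 and 141 in spleen GFP-positive arrays, against 4709.6 and 4925 in spleen GFP-negative arrays (-4.95 ± 0.10). In none of the 3 did the fractions overlap. Thbd, which encodes thrombomodulin, was at the floor in both spleen GFP-positive arrays, against 639.9 and 366 in spleen GFP-negative arrays, at least 15.1-fold lower, with the spleen GFP-negative replicates 1.75 times apart.

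**Figure D2:**
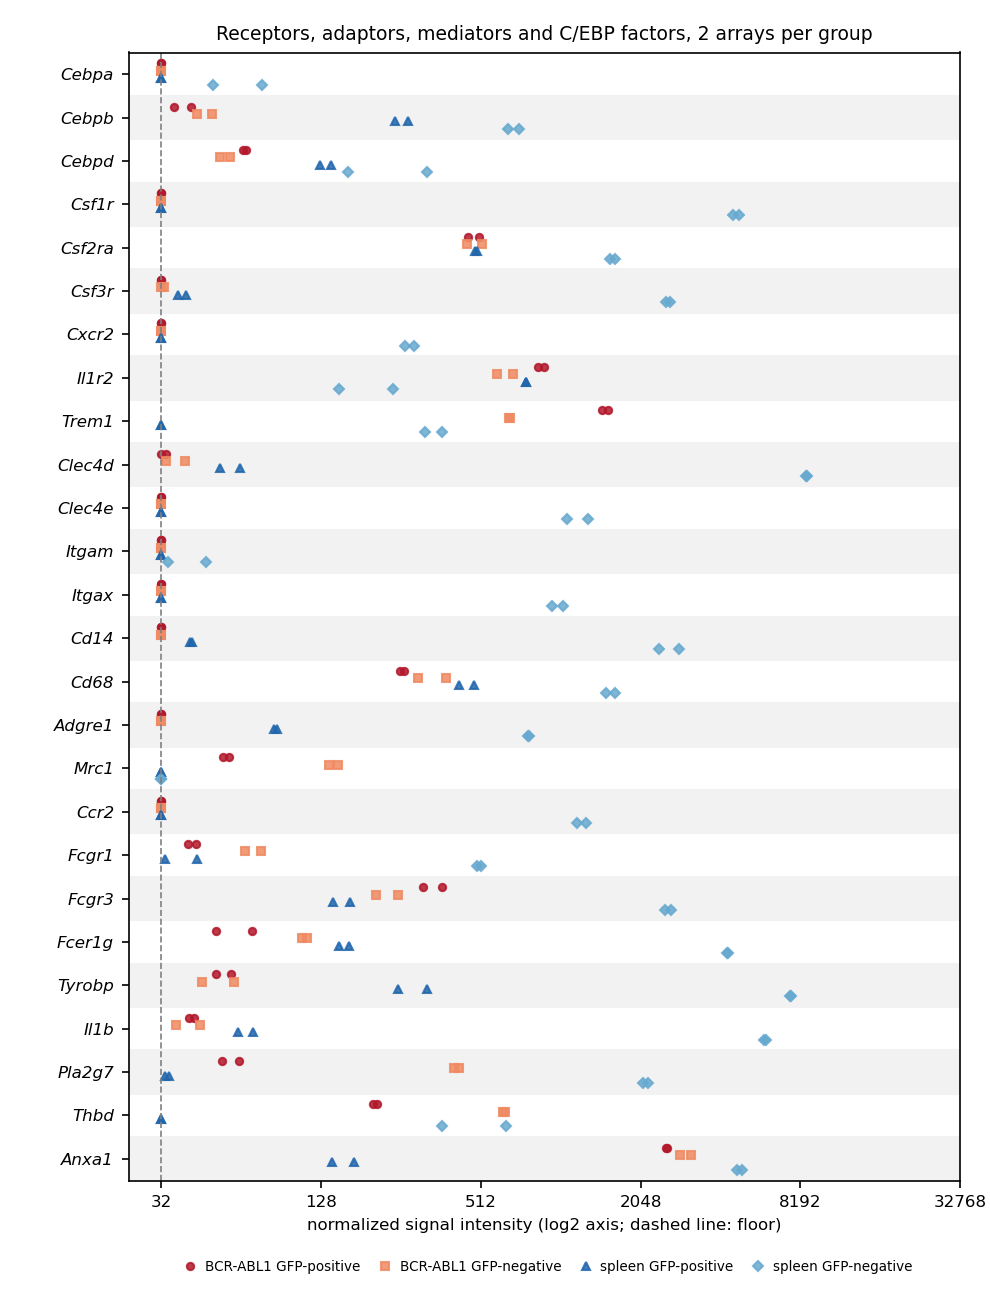
Normalized signal intensity on a log2 axis of the brightest probe set of each of 26 member genes that are not granule or lysozyme genes, with 1 point per array and 2 arrays in each of 4 groups; the dashed line is the floor of 32. Il1r2 is the row in which spleen GFP-negative arrays lie below all others, Trem1, Thbd and Anxa1 have BCR-ABL1 arrays far above spleen GFP-positive arrays, and Mrc1 exceeds the floor in BCR-ABL1 arrays alone.

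How much of the spleen GFP-negative signal the GFP-positive arrays kept ran from 0.174% to 390.0% among the 38 tested genes. The mean spleen GFP-positive signal of S100a8 was 0.174% of the spleen GFP-negative mean, that of Ltf 0.925%, Mpo 1.51%, Lcn2 3.03%, Fcgr3 5.93%, Adgre1 11.2%, Csf2ra 30.5% and Cebpd 55.3%. All these percentages read the brightest probe set of a gene. By that probe set 12 of the 38 genes were at the floor in both spleen GFP-positive arrays, so their percentages are upper bounds, except for Mrc1, which was at the floor in all 4 spleen arrays. Genes whose brightest probe set exceeded 51 in both spleen GFP-positive arrays numbered 16, and they were S100a9, Lcn2, Ms4a3, Lyz2, Cebpb, Cebpd, Csf2ra, Il1r2, Clec4d, Cd68, Adgre1, Fcgr3, Fcer1g, Tyrobp, Il1b and Anxa1. The spleen GFP-negative replicates were close: the ratio of replicate 1 to replicate 2 had a median of 1 and a range of 0.625 (Il1r2) to 1.97 (Cebpd).

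**Figure D3:**
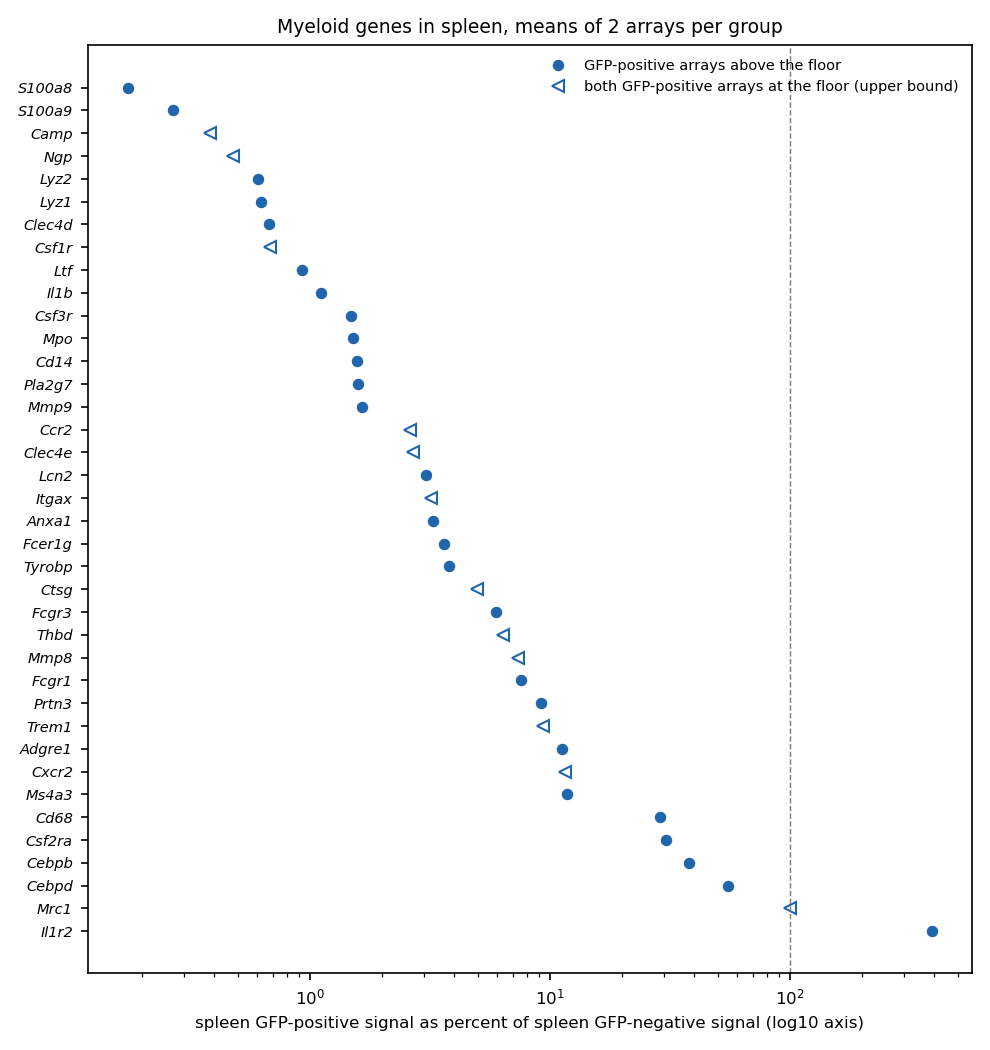
Mean spleen GFP-positive signal as a percentage of the mean spleen GFP-negative signal (log10 axis, 2 arrays per group) for the brightest tested probe set of 38 member genes, ordered from lowest to highest. Open triangles mark genes with both spleen GFP-positive arrays at the floor of 32. They are upper bounds, except for Mrc1, which is at the floor in all spleen arrays. The dashed line marks equality. S100a8 stands at 0.174% with spleen GFP-positive arrays close to the floor, and Il1r2 (390.0%) is the single gene to the right of the line.

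Markers of other cell types were read in the same contrast, with the same limit from the filter. Among all probe sets tested 33.3% were called lower and 44.9% higher (78.2% in either direction). Without the filter 23.5% were called lower. All 10 tested T and NK cell genes were lower in spleen GFP-positive arrays, 7 of them above the filter's signal in another group, and 14 of 19 probe sets were lower without the filter. They ran from Klrd1, an NK cell receptor chain (-6.97 ± 0.14), to Gzma, a cytotoxic granule protease (-0.89 ± 0.15), and the summed signal over the 12 genes with a probe set was 991 to 1008 in spleen GFP-positive and 16336 to 17928 in spleen GFP-negative arrays. Cd3g, a chain of the T cell receptor complex, was at the floor in both spleen GFP-positive arrays and at least 78.3-fold lower. All 3 tested genes of mast cells, basophils and eosinophils were lower too, with Mcpt8, a basophil protease, at -3.15 and Prg2, an eosinophil granule protein, at -1.35, while the mast cell and basophil receptor genes Fcer1a and Ms4a2 were at the floor in all 8 arrays. Without the filter 4 of the 10 probe sets of this list were lower, 1 was higher and 5 were not called. Of erythroid and megakaryocyte genes 1 of 3 tested was called, the erythroid factor gene Klf1 (0.89), higher, and the platelet gene Ppbp, the haem synthesis gene Alas2 and the globin gene Hba-a1 were at the floor in all 8 arrays. Of 5 dendritic cell genes tested 2 were lower, Ccr9 (-2.75) and Tcf4 (-0.30), and 1 was higher, the receptor kinase gene Flt3 (3.66). Klf1, Ccr9 and Tcf4 are named after their values were seen. The 9 pan-B genes tested had 5 lower and 2 higher, a median of -0.25, and sums of 48470 to 51070 in spleen GFP-positive and 61736 to 61828 in spleen GFP-negative arrays. Counted in either direction, the erythroid and megakaryocyte, dendritic and pan-B lists were called no more often than all probe sets tested. The part of these other cell types in the myeloid differences was not tested.

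**Figure D4:**
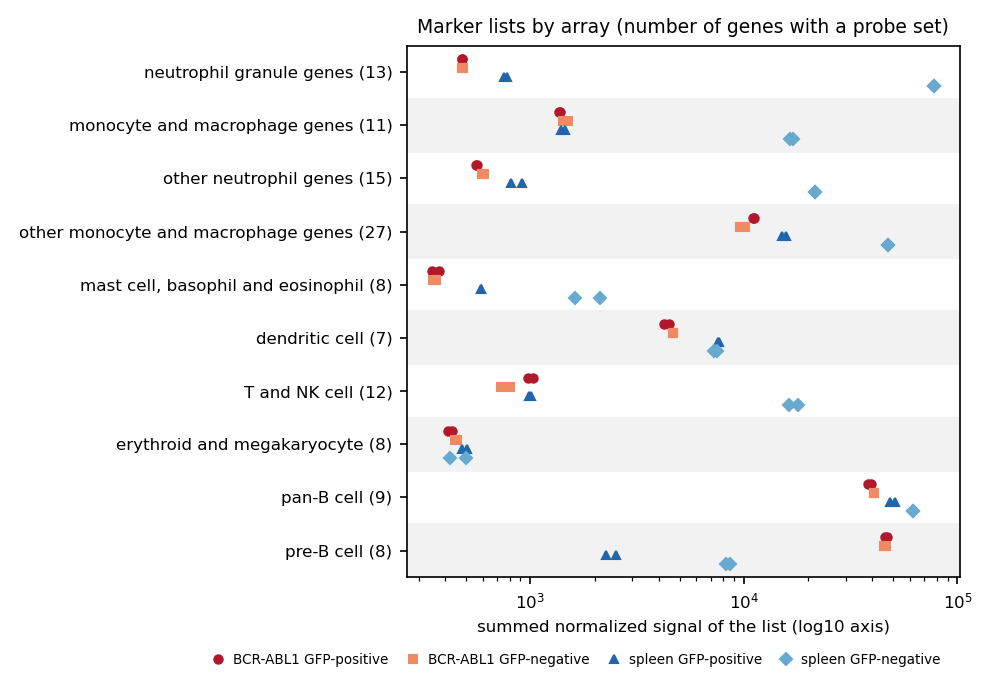
Summed normalized signal (log10 axis) of the brightest probe set of each gene in 10 marker lists, with 1 point per array and the number of genes with a probe set in brackets. The granule sum is 755 to 779 in spleen GFP-positive and 77755 to 78069 in spleen GFP-negative arrays, and the pan-B sums of all 4 groups lie within 38064 to 61828.

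The second comparison asked the same of the BCR-ABL1 fractions, where few members differed past the threshold. Of 46 member probe sets tested, 2 were called higher and 4 lower in BCR-ABL1 GFP-positive arrays, with a median log2 difference of 0. Among all probe sets tested 1.57% were called higher and 1.23% lower (2.80% in either direction). The 6 probe sets belong to 5 genes, Trem1 (higher) and Mrc1, Fcer1g, Pla2g7 and Thbd (lower). The number rests on few arrays and fell when any 1 of the 4 BCR-ABL1 arrays was left out. It was 3 of 56 without the filter, where 1.19% of all probe sets were called (0.639% higher and 0.551% lower). When the 4 BCR-ABL1 arrays were normalized and fitted alone, it was 10 of 23, where 7.99% of all probe sets tested were called. Mrc1, Pla2g7 and the brighter Trem1 probe set kept their call under each alternative in which they were tested, and the other 3 also lost theirs without the filter (adjusted p = 0.104 to 0.157).

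None of the granule genes was called in the BCR-ABL1 comparison. With limma, 0 of their 13 tested probe sets had an adjusted p under 0.05, against 2.80% of all probe sets tested. Beside that share, 0 of 13 does not set these genes apart. In the same fit 0 of the 13 had an unadjusted p under 0.05, against 3117 of all 27022 probe sets tested. That count does not set these genes apart either. The smallest unadjusted p among the granule genes was 0.0834 (S100a9). Their log2 differences lay between -0.23 and 0.24, and their summed signal was 478 to 479 in BCR-ABL1 GFP-positive and 479 to 483 in BCR-ABL1 GFP-negative arrays. The floor makes up much of these sums. Of the 13 genes, 6 were at the floor in both BCR-ABL1 GFP-positive arrays and 8 in both GFP-negative arrays. Of the 12 granule genes tested, 5 were at the floor with every tested probe set in all 4 arrays. Over all tested members, 11 of 38 genes were at the floor with every tested probe set in all 4 BCR-ABL1 arrays, where a difference could not be measured. Another 15 had a tested probe set above the filter's signal in all 4, and none of these was a granule gene: Lyz1, Lyz2, Cebpb, Cebpd, Csf1r, Csf2ra, Il1r2, Trem1, Cd68, Mrc1, Fcgr3, Fcer1g, Pla2g7, Thbd and Anxa1.

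Trem1 was the member that rose. Its brighter probe set had 1464 and 1550.4 in BCR-ABL1 GFP-positive arrays, against 659 and 655 in BCR-ABL1 GFP-negative arrays (1.20 ± 0.12, adjusted p = 0.00192). Its dimmer probe set had 263 and 232 in BCR-ABL1 GFP-positive arrays, against 102 and 137 in BCR-ABL1 GFP-negative arrays (1.07 ± 0.19, adjusted p = 0.0307). Neither probe set overlapped between the fractions, and in both the BCR-ABL1 GFP-positive arrays were the highest of all 8. The call of the dimmer one was lost without any one of the 4 BCR-ABL1 arrays (0.85 to 1.27, adjusted p up to 0.282) or of the 2 spleen GFP-positive arrays (adjusted p = 0.0788 and 0.0804).

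Mediators and the mannose receptor fell. Pla2g7 had 62.7 and 54.3 in BCR-ABL1 GFP-positive arrays, against 423 and 406 in BCR-ABL1 GFP-negative arrays (-2.83 ± 0.13, adjusted p = 5.44e-05), the largest difference of a member here. Thbd had 209 and 201 in BCR-ABL1 GFP-positive arrays, against 623 and 634 in BCR-ABL1 GFP-negative arrays (-1.62 ± 0.23, adjusted p = 0.0111). Mrc1 had 57.8 and 54.9 in BCR-ABL1 GFP-positive arrays, against 137 and 148 in BCR-ABL1 GFP-negative arrays (-1.34 ± 0.11, adjusted p = 0.000832). In all 3 genes the replicates lay close together and the fractions far apart. Fcer1g had 51.8 and 70.3 in BCR-ABL1 GFP-positive arrays, against 109 and 113 in BCR-ABL1 GFP-negative arrays (-0.88 ± 0.16, adjusted p = 0.0305). The Thbd call was lost without any one of the 4 BCR-ABL1 arrays (-1.65 to -1.58, adjusted p = 0.111 to 0.124). The Fcer1g call was lost without BCR-ABL1 GFP-positive replicate 1 (-0.65), without either BCR-ABL1 GFP-negative array (-0.89 and -0.84) and without any one of the 4 spleen arrays (-0.91 to -0.88, adjusted p = 0.0513 to 0.0749).

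Further members had fractions that did not overlap without reaching the threshold. Fcgr1 had 43.3 and 40.5 in BCR-ABL1 GFP-positive arrays, against 66.0 and 76.2 in BCR-ABL1 GFP-negative arrays (-0.76 ± 0.16, adjusted p = 0.0601), and it passed on the deposited scale (0.0243), after a shift to equal medians (0.0297), with 1 probe set per gene (0.0353) and in the BCR-ABL1 arrays alone (0.00515). Fcgr3 had 365 and 311 in BCR-ABL1 GFP-positive arrays, against 206 and 249.6 in BCR-ABL1 GFP-negative arrays (0.57 ± 0.14, adjusted p = 0.107). Il1r2 had 842 and 883 in BCR-ABL1 GFP-positive arrays, against 587 and 677 in BCR-ABL1 GFP-negative arrays (0.45 ± 0.20, adjusted p = 0.459). The first of these leaned towards the BCR-ABL1 GFP-negative side and the others towards the GFP-positive side. In the 4 BCR-ABL1 arrays alone Il1r2 (adjusted p = 0.00967), Fcgr3 (0.0217) and Anxa1 (0.0272) passed as well. Lyz2 (0.27), Anxa1 (-0.24) and Cd68 (-0.38) did not pass in the fit of all 8 arrays, with adjusted p = 0.695, 0.388 and 0.320 in limma. In all, 12 of 46 member probe sets had both BCR-ABL1 GFP-positive arrays above both GFP-negative arrays and 11 the reverse, against 23.6% and 22.8% of all probe sets tested.

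Markers of other cells were called in the BCR-ABL1 comparison as well, where 1.57% of all probe sets tested were called higher and 1.23% lower. Of 10 T and NK cell genes tested 2 were higher in BCR-ABL1 GFP-positive arrays, Klrd1 (0.78 ± 0.14) and Gzma (at least 1.64-fold), and their list summed to 974 to 1034 in BCR-ABL1 GFP-positive and 726 to 800.5 in BCR-ABL1 GFP-negative arrays. These sums hold floor values. Of the 12 genes, 3 were at the floor in both GFP-positive arrays and 5 in both GFP-negative arrays. Of 3 mast cell, basophil and eosinophil genes tested, Prg2 was higher (0.90 ± 0.14), with the mast cell and basophil receptor genes Fcer1a and Ms4a2 at the floor. Of 9 pan-B genes tested 3 were lower, Ms4a1, which encodes CD20 (-3.73 ± 0.18), Cd22 (-1.77) and Cd72 (-0.65), and of 8 pre-B genes the recombinase genes Rag1 (1.498) and Rag2 (0.72) were higher and Enpep (-2.15) lower. No dendritic, erythroid or megakaryocyte gene was called by limma. The genes of these lists are named after their values were seen, and their part in the member differences was not tested.

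**Figure D5:**
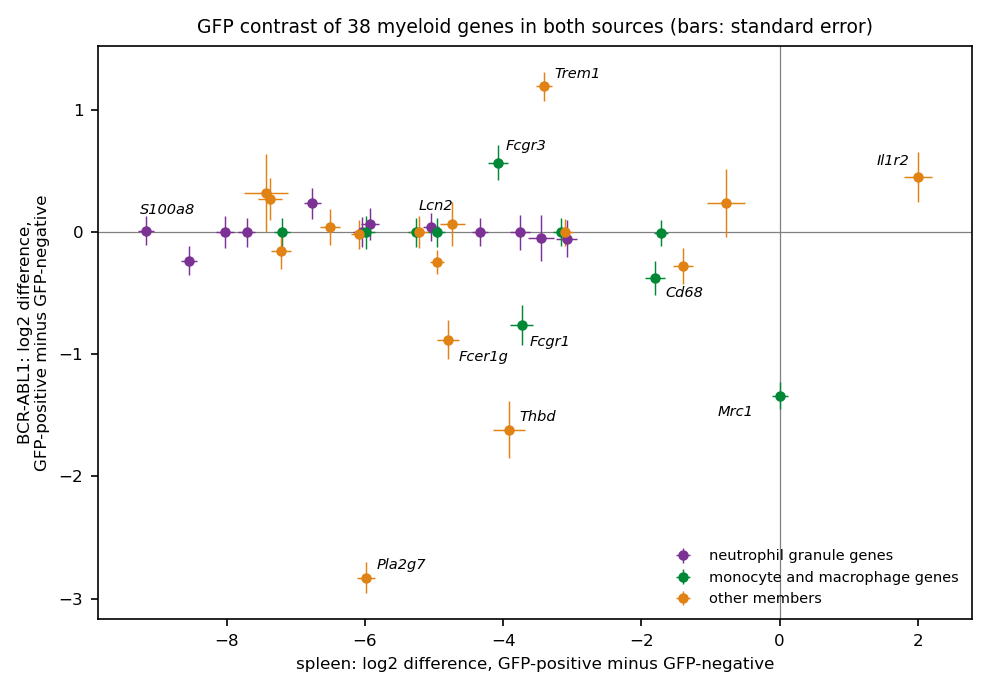
Log2 difference, GFP-positive minus GFP-negative, of the brightest tested probe set of 38 member genes in spleen (x axis) and in BCR-ABL1 cells (y axis), with standard errors as bars, from 2 arrays per group. Granule genes spread from -9.17 to -3.08 along the spleen axis and lie within -0.23 to 0.24 on the BCR-ABL1 axis, while Pla2g7 (-2.83), Thbd (-1.62), Mrc1 (-1.34) and Trem1 (1.20) stand apart on the BCR-ABL1 axis.

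The difference between the GFP effects of the 2 sources was tested directly. In all 46 member probe sets it was called, 42 with a GFP effect higher in BCR-ABL1 cells than in spleen and 4 lower, against 69.8% called among all probe sets tested (29.5% higher and 40.3% lower). The filter enters this count as it does the spleen count, and for the 11 genes at the floor in all BCR-ABL1 arrays the value restates the spleen difference. Without the filter 44 of 56 were higher and 3 lower, against 20.0% and 23.7% of 45037 probe sets (43.6% in either direction). With the filter the 4 were Il1r2 (-1.55 ± 0.28), Mrc1 (-1.34 ± 0.16) and the second probe sets of Cebpb (-0.74) and Cebpd (-0.78). S100a8 had a value of 9.18 ± 0.17 (adjusted p = 1.46e-07), which comes from the spleen side, since its BCR-ABL1 difference was 0.01. The C/EBP calls were the weakest. That of the first Cebpd probe set (1.01) was lost without any one of the 4 BCR-ABL1 arrays or either spleen GFP-positive array (0.94 to 1.07, adjusted p = 0.0885 to 0.129). That of the second Cebpb probe set was lost without BCR-ABL1 GFP-negative replicate 2 (-0.63), BCR-ABL1 GFP-positive replicate 1 (-0.59), spleen GFP-negative replicate 1 (-0.55) or either spleen GFP-positive array (-0.83 and -0.64). Trem1 differed in direction: it rose with GFP in BCR-ABL1 cells and was lower with GFP in spleen (4.61 ± 0.17).

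Set against the spleen GFP-positive arrays, the BCR-ABL1 GFP-positive arrays had some members higher and others lower. Of 46 member probe sets, 10 were called higher and 11 lower in BCR-ABL1 GFP-positive arrays, against 22.4% and 21.6% of all probe sets tested (44.0% in either direction). The largest was Trem1, with 1464 and 1550.4 in BCR-ABL1 GFP-positive arrays, against the floor in both spleen GFP-positive arrays, at least 47.1-fold higher (adjusted p = 2.35e-08). Anxa1 had 2571 and 2556 in BCR-ABL1 GFP-positive arrays, against 171 and 141 in spleen GFP-positive arrays (4.04 ± 0.10). Both were high in BCR-ABL1 GFP-positive arrays and low or unmeasured in spleen GFP-positive arrays. Lyz2 (2.72 ± 0.17), Lyz1 (3.51 ± 0.32) and Fcgr3 (1.14 ± 0.14) were higher too, and Thbd was at least 6.4-fold and Mrc1 at least 1.76-fold higher than the floor of the spleen GFP-positive arrays. Pla2g7 was higher by 0.79 ± 0.13, with spleen GFP-positive arrays just above the floor.

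Lcn2 led the members that were lower in BCR-ABL1 GFP-positive arrays (-3.13 ± 0.12, adjusted p = 3.39e-07). Cebpb followed, with 35.8 and 41.6 in BCR-ABL1 GFP-positive arrays, against 273 and 243 in spleen GFP-positive arrays (-2.74 ± 0.15). The second Cebpb probe set had 110 and 133 against 151 and 173 in the same arrays and was not called (-0.42). Tyrobp had 59.0 and 51.6 in BCR-ABL1 GFP-positive arrays, against 249 and 321 in spleen GFP-positive arrays (-2.36 ± 0.18), and Fcer1g was lower (-1.38 ± 0.16). These genes had spleen GFP-positive signals above all 4 BCR-ABL1 arrays. Adgre1 was at the floor in BCR-ABL1 GFP-positive arrays, at least 2.69-fold lower than in spleen GFP-positive arrays. Both Cebpd probe sets (-1.02 and -0.66), Clec4d (-0.83), Cd68 (-0.80), Il1b (-0.68) and Ms4a3 (-0.53) were lower by smaller amounts. The remaining 25 probe sets were not called, among them those of S100a8, Camp, Ngp, Cxcr2 and the Ccr2 probe set tested, which lay at or close to the floor in both groups.

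Against the spleen GFP-negative arrays, the BCR-ABL1 GFP-negative arrays had 39 of 46 member probe sets called lower and 3 higher, against 33.4% and 45.5% of all probe sets tested (78.9% in either direction). Without the filter 43 of 56 were lower and 3 higher, against 23.6% and 28.0% of 45037 (51.6% in either direction). The 3 higher with the filter were Il1r2 (1.74 ± 0.20), Mrc1, which was at least 4.45-fold higher, and the brighter Trem1 probe set (0.95 ± 0.12). Anxa1 differed little by comparison, with 2895 and 3169 in BCR-ABL1 GFP-negative arrays, against 4709.6 and 4925 in spleen GFP-negative arrays (-0.67 ± 0.10, adjusted p = 0.000305). Thbd had 623 and 634 in BCR-ABL1 GFP-negative arrays, against 639.9 and 366 in spleen GFP-negative arrays, which overlapped (0.38 ± 0.23, adjusted p = 0.171). Thbd was therefore not distinguished between the groups, while Anxa1 was lower in BCR-ABL1 GFP-negative arrays without overlap. Lcn2 was at least 297-fold lower and S100a8 at least 599-fold lower in BCR-ABL1 GFP-negative arrays. This comparison and the spleen comparison share the spleen GFP-negative arrays.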

How the data were processed

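RNA from 8 samples was labelled with biotin and hybridised to mouse Affymetrix expression arrays, per the labels' protocols. The deposited table holds 1 intensity per probe set and array on a linear scale, 45101 probe sets in all. GCOS 1.3 is named in the submitters' processing notes, and how the authors scaled the arrays is not given in the sources used here. Groups and replicate numbers were taken from the sample titles.

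Of the 45037 probe sets left once 64 controls were removed, the platform annotation gave a single symbol to 34945, more than 1 to 932 and no symbol to 9160. Because trimmed means differed by more than 10%, arrays were quantile normalized, floored at 32 and put on a log2 scale. The 40th percentile of mean log2 served as filter: 27022 probe sets passed, with 46 of 56 member probe sets. One limma 3.58.1 model in R 4.3.3 (lmFit, then eBayes with a trend) held all 8 arrays as 4 group means, leaving 4 residual degrees of freedom, and Benjamini-Hochberg adjustment ran over every probe set tested. The fit was tested on simulated data. Precision is limited by having 2 arrays in a group: an exact two-sided permutation test of 2 against 2 cannot go below 0.333, and the adjusted p-values depend on limma's pooled variance. A fold against a group with both arrays at the floor is a lower bound.

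Any of the 42 members could be named, by its brightest probe set and by others that differ in call or direction, and of each other list the genes with the largest and smallest spleen difference or at the floor in all arrays of a group. Of the 41 genes, 30 have 1 probe set and 11 have more. The members, lists and tests were chosen with earlier results of these data known. Promoters came from RefSeq (GRCm38.p6). Alternatives covered the deposited scale, equal medians, floors of 16 and 64, a pseudocount of 32, the filter (none, or the 60th percentile), eBayes settings, 1 probe set per gene, the replicate number as a block, each array left out and, added after seeing the data, each source's 4 arrays alone.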

Additional observations from a re-analysis of the deposited data

Results flagged for a closer look

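The GFP effect differed between BCR-ABL1 cells and spleen in each of the 38 tested member genes, by limma's test of that difference with adjusted p under 0.05. This count is limited by the filter on low signals, since 15 of the 38 did not exceed it in both arrays of any group other than spleen GFP-negative, and without it 47 of 56 probe sets were called, against 43.6% of all. For the 12 genes whose brightest probe set was at the floor in all 4 BCR-ABL1 arrays, Csf1r among them, the value repeats the spleen difference with its sign turned. Values are log2 differences, the BCR-ABL1 effect minus the spleen effect, of the brightest probe set. The effect was lower in BCR-ABL1 cells for Il1r2 (-1.55) and Mrc1 (-1.34). It was higher by the least for the transcription factors Cebpd (1.01) and Cebpb (1.12), for Cd68 (1.43), Csf2ra (1.71) and Thbd (2.30), and for Fcgr1 (2.97). The second probe sets of Cebpd (-0.78) and Cebpb (-0.74) were called lower, so no single direction can be given for either gene. Among other alternatives, the Cebpd call of 1.01 was lost on the deposited scale, after a shift to equal medians and without the filter.

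Values of 3 to 5 were found for the granule genes Ms4a3 (3.03), Prtn3 (3.41), Mmp8 (3.76) and Ctsg (4.34). In the same range lay Cxcr2 (3.11), Pla2g7 (3.16), Adgre1 (3.16), Fcer1g (3.92), Trem1 (4.61), Fcgr3 (4.65), Anxa1 (4.71), Tyrobp (4.80) and Itgax (4.96). Values of 5 to 7 were found for Lcn2 (5.08), Clec4e (5.21), Ccr2 (5.26), Cd14 (5.99), Mmp9 (5.99), Mpo (6.04), Csf3r (6.06), Il1b (6.54) and Ltf (7). The top of the range held Clec4d (7.06), Csf1r (7.20), Lyz2 (7.64), Ngp (7.71), Lyz1 (7.76), Camp (8.02), S100a9 (8.31) and S100a8 (9.18). Where a gene was at the floor in a group, its value depends on that floor, and 69.8% of all probe sets tested differed between the sources in the same test. The spleen arrays entered with 2 samples per fraction, and the cause was not tested.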

How the results depend on the processing

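With a 60th percentile filter only 19 member probe sets were tested in the spleen comparison and all 19 were called, as were 19 for the difference between the sources and 18 between the GFP-negative groups. Of all 18015 probe sets tested under that filter, 80.8%, 73% and 80.9% were called in the same comparisons. The number called in the BCR-ABL1 comparison was 6, but 3 without the filter, 10 in the 4 BCR-ABL1 arrays alone and 2 to 5 on leaving out 1 array. Leaving out 1 array gave 42 to 44 calls in the spleen comparison, 43 to 45 for the difference between the sources, 17 to 23 between the GFP-positive groups and 41 to 42 between the GFP-negative groups. No member probe set reversed its direction in the 2 GFP comparisons or their difference while called. Of the calls, 43 of 45 (spleen), 3 of 6 (BCR-ABL1) and 42 of 46 (difference) kept their side of the threshold under every alternative that tested them. On the deposited scale the median spleen difference of all probe sets was 0.35 and after a shift to equal medians 0.51, against 0.17, and 65.2% and 71.1% of all spleen calls were higher, against 57.4%. The replicate number as a block gave 45 calls (spleen), 6 (BCR-ABL1), 46 (difference), 22 (GFP-positive) and 42 (GFP-negative). Among all probe sets tested with that block, the shares called were 80.4%, 2.77%, 72.6%, 48.1% and 81.7% in the same order. Deviations of same-numbered arrays correlated at 0.272 in spleen and 0.11 in BCR-ABL1 cells, over 2 numbers only, so the numbers are not known to pair the samples. Signals at the floor limit what can be read: 11 of 38 genes were at the floor with every tested probe set in all BCR-ABL1 arrays. The causes of these changes were not tested beyond the number of probe sets or arrays entering each fit.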

Other observations

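Further neutrophil genes, which are not among the 42, were lower in spleen GFP-positive arrays in 11 of 11 tested, against 33.3% of all probe sets tested. Only 5 of these 11 exceeded the filter's signal in a group other than spleen GFP-negative, and the rest had to differ once they passed. Without the filter 15 of 19 probe sets were lower and 4 not called, against 23.5% of all probe sets lower. They ran from Fpr2, a formyl peptide receptor that was at the floor in both spleen GFP-positive arrays and at least 117-fold lower, to G0s2, a lipolysis inhibitor (-2.05 ± 0.16). Stfa2l1, a stefin of neutrophils (at least 72.5-fold lower), Chil3, a chitinase-like lectin (at least 97.5-fold), Anxa3 (at least 18.7-fold) and Cd177, a neutrophil surface protein (at least 16.3-fold), were at the floor there too. In the BCR-ABL1 comparison 1 of these 11 was called, against 2.80% of all probe sets tested. It was Wfdc21 (-1.10, adjusted p = 0.00519), which is named after its value was seen.

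Of 18 further monocyte and macrophage genes tested, 17 were lower in spleen GFP-positive arrays, against 33.3% of all probe sets tested. Of the 18, 13 exceeded the filter's signal in another group. Without the filter 32 of 54 probe sets were lower and 6 higher, against 23.5% and 28.1% of all probe sets. The largest difference among the genes tested was that of the chemokine gene Ccl6 (-6.55). The exception was Cybb, the oxidase subunit that B cells also express (0.23, adjusted p = 0.0838), whose other probe sets were called higher (1.20 and 0.21). In the BCR-ABL1 comparison Lgals3 (0.93) and Alox5ap (0.53) were higher and Sirpa (-0.82) was lower, against 1.57% and 1.23% of all probe sets tested. Genes known from splenic macrophages differed in level: Cd163, the haemoglobin scavenger receptor, and C1qc, a complement chain, were at the floor in all 8 arrays, while the iron exporter gene Slc40a1 had 59.5 and 57.1 in spleen GFP-positive arrays, against 1619.8 and 1807 in spleen GFP-negative arrays, and the haem oxygenase gene Hmox1 had 340.3 and 319.9, against 1290.5 and 1195. Slc40a1 and Hmox1 are named after their values were seen. Clec7a, the receptor for fungal glucan, was at least 46.9-fold and Vcan, a matrix proteoglycan of monocytes, at least 41.4-fold lower in spleen GFP-positive arrays.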
